A study of Homo sapiens with 12 samples.

Results

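BST1 and 9 other genes were followed in spheroids of DU145 human prostate cancer cells with and without α2 integrin. Their products make, use or convert nicotinamide adenine dinucleotide (NAD) or its precursors. The 10 genes, out of 26485 in the deposited table, are BST1, CD38, NAMPT, NNMT, NMNAT1, NMNAT2, QPRT, NT5E, NADK and NNT. They were chosen by name, and BST1 was chosen because it was among the genes with the lowest values in α2 positive relative to α2 negative cells. The fall of BST1 in the α2 positive line is therefore given as a description without a test, while the other 9 genes were tested.

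All cells came from DU145, an established line from a central nervous system metastasis of prostate cancer, in which the α2 integrin gene ITGA2 had been knocked out with Crispr/Cas9. DU145KO was the knockout line with no further transfection (CRISPR in the labels), selected for GFP from the Cas9 vector and then sorted to remove cells with α2 left at the surface. DU145KO+α2 (a2, the rescued line) carried an α2 integrin cDNA in the plasmid pAWneo2 and DU145KO+vector (pAW, the vector line) carried the empty plasmid, and both were kept under geneticin. Each of the 3 lines was grown as spheroids of 8000 cells over 72 hours in RPMI without serum and gave 4 RNA-seq samples, 12 in all. A clonal origin of the lines is not given in the sources used here. The study's methods call the 4 samples of a line independent biological replicates and do not say what was repeated. Each construct was carried by a single line, so the tests below measure spread among samples of a line. Effects of α2 and other differences between the lines cannot be told apart.

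NAD carries electrons in metabolism and is also used up by enzymes that cleave it, and nicotinamide released by cleavage is recycled. In the salvage route NAMPT, the rate-limiting enzyme, turns nicotinamide into nicotinamide mononucleotide (NMN), and the NMNAT enzymes turn NMN into NAD. BST1 (CD157) and CD38 are related enzymes at the cell surface that form cyclic ADP-ribose from NAD, CD38 being the main surface NAD glycohydrolase of many cells.

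The counts of genes summed to between 13948734 and 19988111 per sample, and 14732 genes had enough reads to be tested. Levels are given as CPM, counts scaled to library size with TMM factors, and 3 counts, the least that was read as detection, corresponded to 0.150 to 0.215 CPM. ITGA2 averaged 305 CPM ± 33.5 (SD, n = 4) in DU145KO+α2, against 20.7 ± 4.16 in DU145KO and 17.6 ± 3.15 in DU145KO+vector. The epithelial genes EPCAM, CDH1, KRT8, KRT18 and KRT19 were measured in all 12 samples, with a summed level of 1211 to 1584 CPM in DU145KO, 859.7 to 1154 CPM in DU145KO+α2 and 1142 to 1387 CPM in DU145KO+vector. The sums of DU145KO+α2 were below those of DU145KO and overlapped those of the vector line, and their part in the differences below was not tested. Of the leukocyte list, PTPRC and CD3E had at most 1 count in any sample, while CD14 had 1.27 to 2.63 CPM in all 12.

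All 10 genes passed the filter on low counts. BST1 passed through DU145KO and DU145KO+vector, where all 4 samples of each exceeded 0.608 CPM, whereas 1 of 4 DU145KO+α2 samples did. Compared per transcript length, as RPKM, NAMPT had the highest mean level of the 10 genes in each line (222 RPKM in DU145KO, 270.2 in the rescued line and 229 in the vector line). NNMT followed at 112, 99.1 and 76.5 RPKM in the same order of lines. NADK, NNT and NT5E lay between 21.8 and 35 RPKM, and the remaining 5 genes were all below 7 RPKM. BST1 was seventh in DU145KO at 4.66 RPKM, where its range overlapped that of NMNAT1 at 4.99 RPKM. In DU145KO+vector it was sixth at 6.94 RPKM, without overlap with its neighbours NT5E (25.6 RPKM) and NMNAT1 (5.54 RPKM). In DU145KO+α2 it was the lowest of the 10 at 0.491 RPKM, and its range overlapped that of QPRT at 0.492 RPKM. Other neighbours with overlapping ranges were NNT and NT5E and also CD38 and QPRT in DU145KO, and NADK and NNT and also NMNAT2 and CD38 in DU145KO+vector.

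**Figure D1:**
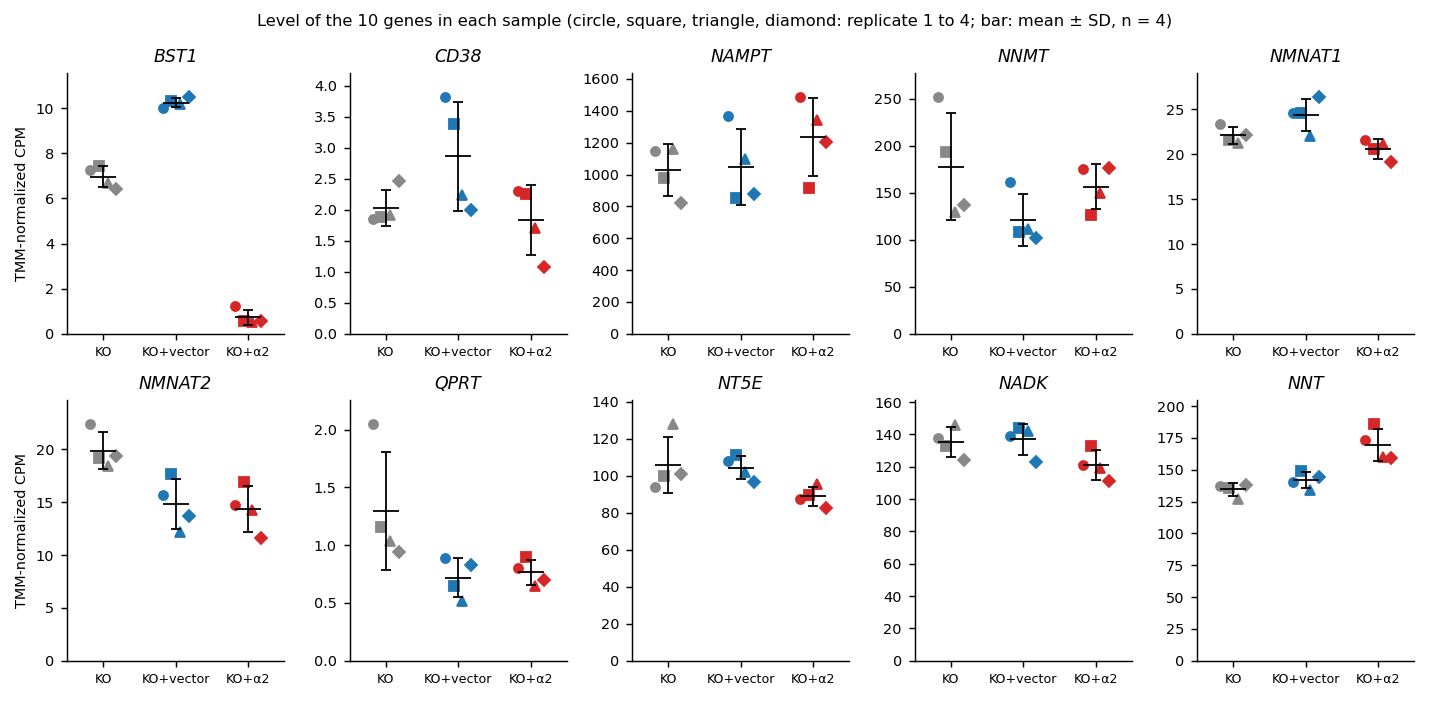
Each panel plots 1 gene, with TMM-normalized CPM on the vertical axis from 0 and the 3 lines on the horizontal axis. Points are single samples (symbols mark the replicate number) and bars give the mean ± SD of 4 samples. BST1 lies between 0.532 and 1.24 CPM in DU145KO+α2 and above 6 CPM in every other sample, and the other 9 genes differ far less between lines.

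BST1 was measured at 10, 10.3, 10.2 and 10.5 CPM in the 4 DU145KO+vector samples, at 7.28, 7.45, 6.7 and 6.44 CPM in DU145KO and at 1.24, 0.55, 0.532 and 0.573 CPM in DU145KO+α2. The 3 lines did not overlap, and the α2 samples were the lowest. The α2 values rest on 20, 11, 9 and 9 counts, against 109 to 122 counts in DU145KO and 144 to 181 in DU145KO+vector. In terms of fitted values, the rescued line had 14.2-fold less BST1 than DU145KO+vector (log2 fold change −3.83) and 9.64-fold less than DU145KO (−3.27). Ordered from the lowest log2 fold change, BST1 was at rank 3 and rank 13 of all tested genes. In bulk RNA, fewer cells that express BST1 and less BST1 RNA per cell cannot be told apart. Replicate 1 of DU145KO+α2 had the highest BST1 of its line, and without that sample the log2 fold changes were −4.2 against DU145KO+vector and −3.64 against DU145KO.

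BST1 was not chosen on the difference between the α2 negative lines, but the levels of both lines entered the choice. The test of that difference is therefore not independent of the choice. The BST1 level was 10.3 CPM ± 0.211 (SD, n = 4) in DU145KO+vector and 6.97 ± 0.477 in DU145KO, and all 4 vector samples exceeded all 4 DU145KO samples. The difference of 0.56 on the log2 scale (standard error 0.16, 1.48-fold) did not pass the test in the edgeR fit (adjusted p = 0.0729). The samples of different lines with the same replicate number deviated together, and with the replicate number as a block the adjusted p from edgeR was 0.00616 for the same fold change. The call for BST1 in this comparison depended on the fit, since it also passed without replicate 1 of DU145KO+α2, which is in neither line compared (adjusted p = 0.0159, with 0.0159 to 0.173 over the 12 samples left out in turn).

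CD38, next to BST1 on chromosome 4, gave a smaller difference. BST1 lies at chr4:15703065-15738313 and CD38 at chr4:15778275-15853232 (hg38), both on the plus strand with 40.0 kb between them. CD38 was measured at 3.82, 3.38, 2.24 and 2 CPM in DU145KO+vector, at 1.85, 1.89, 1.91 and 2.46 CPM in DU145KO and, in the rescued line, at 2.3, 2.25, 1.71 and 1.08 CPM. Samples of the 3 lines overlapped. Against DU145KO+vector, CD38 was −0.63 on the log2 scale in DU145KO+α2 (standard error 0.26), with an adjusted p of 0.135 in edgeR that became 0.0397 with the replicate block. Against DU145KO the difference was −0.14 (interval −0.70 to 0.43, adjusted p = 0.837).

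The 5 tested genes on each side of BST1 were examined to see whether its low level was shared along the chromosome. From LINC00504, 1233 kb before the start of BST1, to LAP3, 1874 kb after it, 0 of the 10 genes were called in any of the 3 comparisons, where 11.9% (DU145KO+α2 against DU145KO+vector), 8.17% (DU145KO+α2 against DU145KO) and 2.34% (DU145KO+vector against DU145KO) of all tested genes were called. At an unadjusted p under 0.05 there were 2 (CD38 and TAPT1), 1 (FBXL5) and 1 (TAPT1) of the 10, against 24.9%, 21.4% and 15% of all tested genes. DESeq2 called TAPT1 in the first and the last comparison, and voom called 0 in each. The log2 fold changes of these neighbours, CD38 included, ran from −0.63 to 0.30 against DU145KO+vector (median 0.06) and from −0.20 to 0.17 against DU145KO (median −0.06). FAM200B, the closest gene on the other side from CD38, was at −0.10 and −0.13, and FBXL5 beyond it at 0.11 and 0.17.

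**Figure D2:**
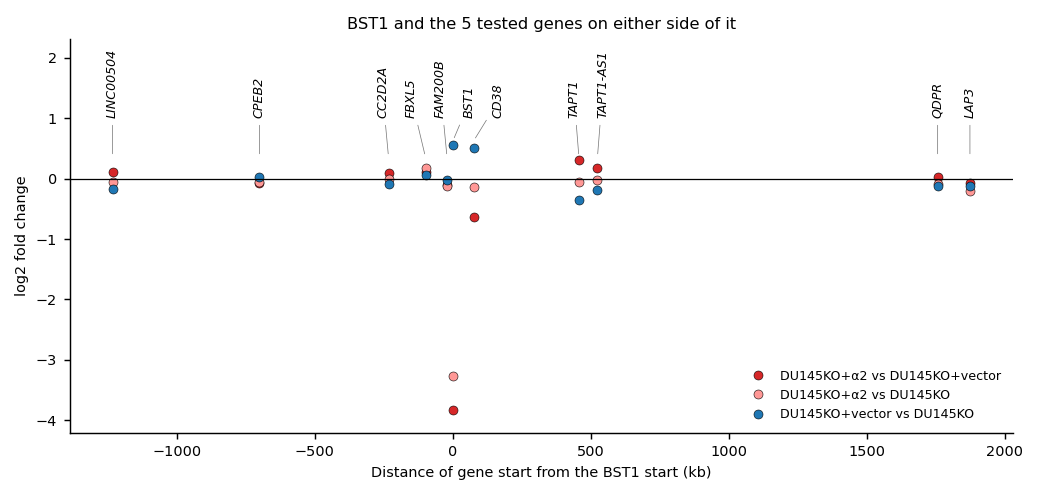
The horizontal axis gives the distance of each gene's lower coordinate from that of BST1 in kb, and the vertical axis the log2 fold change in the 3 comparisons (colours). BST1 at −3.83 and −3.27 stands below its neighbours, of which CD38 is the lowest at −0.63.

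The genes with the pattern most like that of BST1 were sought by the root mean square difference of centred log2 CPM over the 12 samples. CHD5 was the closest at 0.42, followed by C1orf116 (0.64), TMEM154 (0.64), SYK (0.71) and CACNA2D1 (0.73). CHD5, a chromatin remodeller, averaged 4.53 CPM in DU145KO, 0.617 in the rescued and 6.33 in the vector line. SYK, a cytoplasmic tyrosine kinase, averaged 7.72, 1.55 and 7.02 CPM in the same order. C1orf116 averaged 16.5, 2.5 and 18.1 CPM, and TMEM154 and CACNA2D1 averaged below 1.2 CPM in every line. In the rescued line TMEM154 rested on 0 to 7 counts and CACNA2D1 on 0 to 1. The 5 genes were taken from all 14732 tested genes for likeness to BST1, so their low level in the rescued line follows from the choice. No member of the NAD group was among them, which says little about so small a group.

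Of the 9 tested genes other than BST1, 1 was called in DU145KO+α2 against DU145KO+vector (NNT, higher), while 11.9% of all tested genes were called (5.96% higher and 5.95% lower). Against DU145KO, 2 of the 9 were called, NNT higher and NMNAT2 lower, with 8.17% of all genes called (3.09% higher and 5.08% lower). In DU145KO+vector against DU145KO, 0 of 10 were called by edgeR and 4 (BST1, NNMT, NMNAT2 and QPRT) had an unadjusted p under 0.05, as did 15% of all genes. In that comparison edgeR called 2.34% of all genes (0.496% higher and 1.84% lower). DESeq2 called 1 of the 10, as did voom, and in each this was BST1, whose levels in both lines entered its choice. The count of all genes called by DESeq2 is given at the end, and that of voom is not given. No member other than BST1 reached a fold change of 2 in any comparison, while 2.21%, 2.1% and 0.835% of all genes were called with a fold change above 2. With the replicate block, 6 of the 9 were called against DU145KO+vector, 5 of the 9 against DU145KO and 2 of 10 between the α2 negative lines, where 26.5%, 22.3% and 13.4% of all genes were called. Both α2 comparisons share the DU145KO+α2 samples. Against the vector line the 9 genes had a median log2 fold change of −0.04, where all tested genes had −0.006, and against DU145KO the medians were −0.16 and −0.003.

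**Figure D3:**
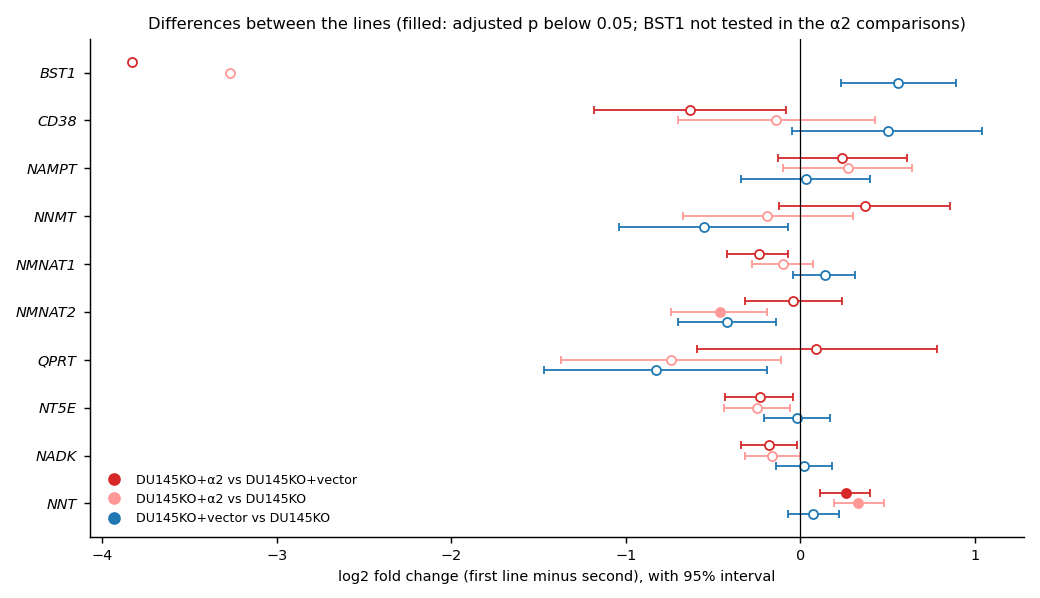
Points give the log2 fold change of each gene in the 3 comparisons (colours, first line minus second) and bars the 95% interval, which is not drawn for BST1 in the α2 comparisons. Filled points passed the edgeR test at adjusted p below 0.05. NNT is filled to the right of 0 in both α2 comparisons, NMNAT2 is filled to the left of 0 against DU145KO, and BST1 was not tested in the α2 comparisons.

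In the salvage route, NAMPT was measured at 1366, 852, 1099 and 879.9 CPM in DU145KO+vector, at 1149, 980, 1163 and 819.7 CPM in DU145KO and at 1487, 915, 1344 and 1204 CPM in DU145KO+α2. The lines overlapped widely, and within each line replicates 1 and 3 were above replicates 2 and 4. NAMPT differed by 0.24 between DU145KO+α2 and the vector line (standard error 0.17, adjusted p = 0.443) and by 0.27 between DU145KO+α2 and DU145KO (standard error 0.17, adjusted p = 0.42). With the replicate block the values were 0.25 (adjusted p = 0.0383) and 0.26 (adjusted p = 0.0347), and in each numbered pair but number 2 against DU145KO the α2 sample was the higher.

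NMNAT1 encodes the nuclear enzyme for the last step to NAD and NMNAT2 its cytosolic and Golgi counterpart, best known in axons. NMNAT1 was measured at 24.6, 24.6, 22 and 26.4 CPM in the vector line, 23.4, 21.6, 21.3 and 22.2 CPM in DU145KO and, in the rescued line, 21.6, 20.6, 21.1 and 19.1 CPM. All α2 samples were below all vector samples and overlapped DU145KO. Its difference from DU145KO+vector was −0.24 (standard error 0.08, adjusted p = 0.0682), which passed the test with the replicate block (adjusted p = 0.022) and without replicate 3 of DU145KO+vector (adjusted p = 0.0492).

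NMNAT2 was measured at 22.4, 19.2, 18.4 and 19.4 CPM in DU145KO, at 14.7, 16.9, 14.3 and 11.6 CPM in DU145KO+α2 and at 15.7, 17.7, 12.2 and 13.7 CPM in DU145KO+vector. Every sample of the transfected lines was below every DU145KO sample, and the transfected lines overlapped each other. NMNAT2 fell by 0.46 on the log2 scale in DU145KO+α2 relative to DU145KO (standard error 0.13, 1.38-fold, adjusted p = 0.038). This call was lost without replicate 1, 2 or 4 of DU145KO or replicate 1, 3 or 4 of DU145KO+α2 (adjusted p between 0.0561 and 0.121). In DU145KO+vector relative to DU145KO the difference was −0.42 (adjusted p = 0.113, and 0.00489 with the replicate block). DU145KO+α2 and DU145KO+vector differed by −0.04 (interval −0.32 to 0.24, adjusted p = 0.897). Geneticin and transfection were shared by both transfected lines, and their part in the NMNAT2 values was not tested.

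NNMT methylates nicotinamide and so takes it out of the salvage route. Its values were 252, 193, 129.9 and 137 CPM in DU145KO, 175, 126, 149.5 and 176 CPM in the rescued line and 162, 108, 112 and 102 CPM in the vector line. The lines overlapped, and replicate 1 was the highest in both α2 negative lines. NNMT did not pass the test in any comparison (0.37 with interval −0.12 to 0.86 for DU145KO+α2 against DU145KO+vector, −0.19 with −0.67 to 0.30 against DU145KO, and −0.55 with −1.04 to −0.07 between the α2 negative lines, adjusted p = 0.263 for the last). QPRT, which enters quinolinate from tryptophan into NAD synthesis, had 2.05, 1.16, 1.04 and 0.937 CPM in DU145KO. In the rescued line it had 0.807, 0.9, 0.65 and 0.7 CPM and in the vector line 0.887, 0.646, 0.518 and 0.827 CPM. All samples of both transfected lines were below those of DU145KO, with differences of −0.74 in the rescued line (adjusted p = 0.15) and −0.83 in the vector line (adjusted p = 0.186) that did not pass the test.

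NT5E (CD73) hydrolyses AMP to adenosine at the cell surface and also acts on NMN. NT5E was measured at 108, 111, 102 and 96.6 CPM in DU145KO+vector, at 94.1, 99.7, 128 and 101 CPM in DU145KO and at 87.5, 89.6, 95.4 and 82.8 CPM in DU145KO+α2. The α2 samples were below all vector samples, and 1 of them exceeded the lowest DU145KO sample. The differences were −0.23 against DU145KO+vector (standard error 0.09, adjusted p = 0.111) and −0.25 against DU145KO (standard error 0.09, adjusted p = 0.108). Both passed with the replicate block, at adjusted p of 0.0133 and 0.0121. Without replicate 3 of DU145KO, which had the highest NT5E of all samples, the first comparison passed as well (adjusted p = 0.0375).

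NADK phosphorylates NAD to NADP in the cytosol, and NNT, in the inner mitochondrial membrane, forms NADPH from NADH and NADP. NADK was measured at 139, 144, 142 and 123 CPM in DU145KO+vector, at 138, 133, 146 and 124 CPM in DU145KO and at 121, 133, 119 and 111 CPM in DU145KO+α2. The lines overlapped. NADK was −0.18 on the log2 scale in DU145KO+α2 relative to DU145KO+vector (adjusted p = 0.153) and −0.16 relative to DU145KO (adjusted p = 0.234), and both passed under the replicate block (adjusted p = 0.0144 and 0.0292).

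NNT was measured at 173, 186, 159.7 and 159 CPM in DU145KO+α2, at 140.3, 149, 134 and 144 CPM in DU145KO+vector and at 137, 136, 127 and 138 CPM in DU145KO. All 4 α2 samples exceeded all 8 α2 negative samples, and the α2 negative lines overlapped. NNT rose by 0.26 on the log2 scale relative to DU145KO+vector (standard error 0.07, 1.20-fold, adjusted p = 0.0201) and by 0.33 relative to DU145KO (standard error 0.07, 1.26-fold, adjusted p = 0.00573). The call against DU145KO held when any 1 of the 12 samples was left out (adjusted p between 0.00737 and 0.0206). The call against DU145KO+vector was lost without replicate 1 or 2 of DU145KO+α2 (adjusted p = 0.0518 and 0.0584) or replicate 3 of DU145KO+vector (0.0736). The antisense gene NNT-AS1 overlaps 2.45% of the exonic bases of NNT. The difference of NNT-AS1 was 0.10 (adjusted p = 0.473, and 0.266 with the replicate block) and 0.19 (adjusted p = 0.173, and 0.0396 with the replicate block). The median of the 20 nearest tested genes was −0.03 and −0.04 in the same comparisons.

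Counted by samples alone, 4 of the 10 genes had no overlap between DU145KO+α2 and DU145KO+vector (BST1, NMNAT1 and NT5E lower, NNT higher), where 17.2% of all tested genes had none (8.4% higher and 8.8% lower). Against DU145KO there were 4 (BST1, NMNAT2 and QPRT lower, NNT higher), where 12.9% of all tested genes had none (5.51% higher and 7.43% lower). Between the α2 negative lines there were 3 (BST1 higher, NMNAT2 and QPRT lower in DU145KO+vector), where 8.76% had none (3.96% higher and 4.8% lower). These counts include BST1, which was chosen for its levels in DU145KO+α2 relative to the α2 negative lines, so that the levels of all 3 lines entered the choice. Without BST1 the counts were 3, 3 and 2 of 9 genes.

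The replicate number was visible in several of the 10 genes. NAMPT deviated from the mean of its line by 0.17, 0.29 and 0.41 on the log2 scale in the samples numbered 1 of DU145KO, DU145KO+α2 and DU145KO+vector, and by −0.05, −0.41 and −0.27 in those numbered 2. NNMT deviated by 0.56, 0.17 and 0.45 in the samples numbered 1. NNT and NADK spread less, with all deviations of NNT between −0.10 and 0.13. What the replicate number stands for is not given in the sources used here.

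**Figure D4:**
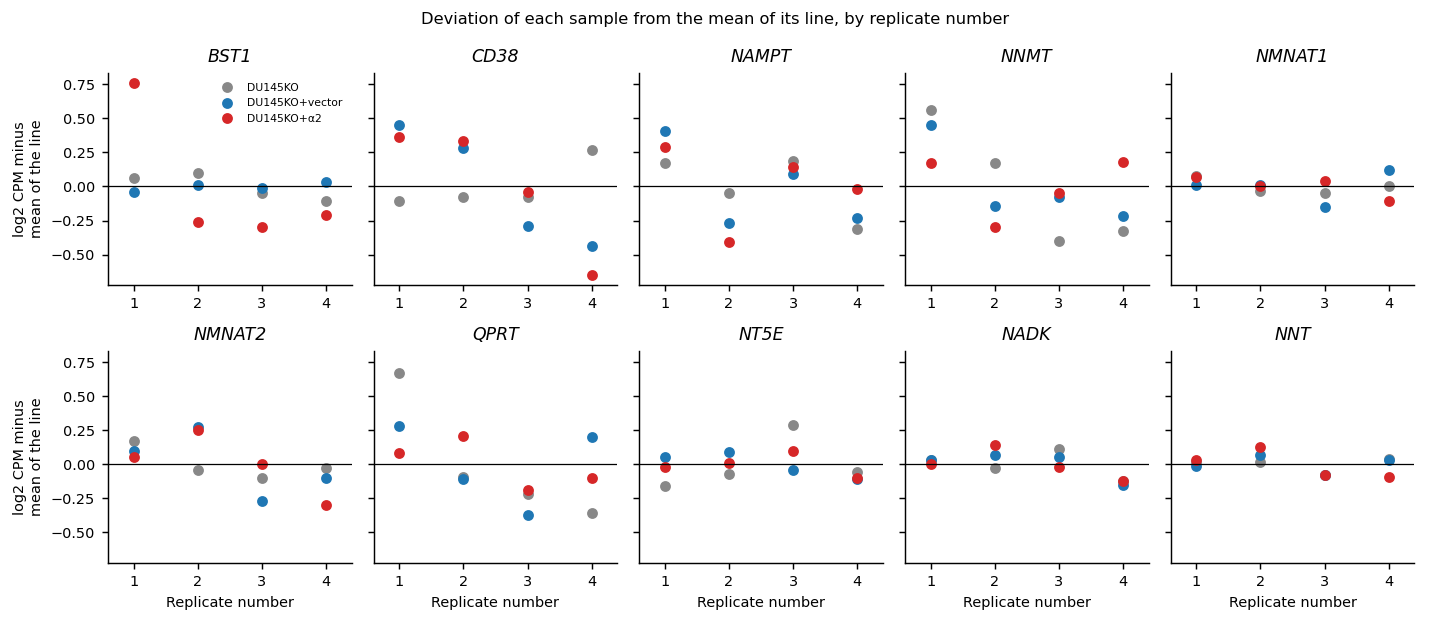
Each panel plots, for 1 gene, log2 CPM minus the mean of the line (vertical axis) against the replicate number (horizontal axis), with colours for the 3 lines. For NAMPT the samples numbered 1 are all above 0 and those numbered 2 all below 0, and for BST1 replicate 1 of DU145KO+α2 stands above the rest.

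A further 82 genes around NAD in 6 lists, which leave out the 10 genes, were examined, and 73 of them had enough reads to be tested. The lists were chosen with earlier results of these data known, so their shares of calls are given as a description. Against DU145KO+vector, 7 rose and 11 fell in DU145KO+α2, that is 24.7% of the 73, with 11.9% of all tested genes called. Against DU145KO, 3 rose and 9 fell (16.4%), with 8.17% of all tested genes called, and with the replicate block 26 of the 73 were called (22.3% of all genes). Between the α2 negative lines, 2 of the 73 were called, both lower in DU145KO+vector (2.74%, with 2.34% of all genes called, and 10 of the 73 with the replicate block, where 13.4% of all genes were called). The median log2 fold change of the 73 genes was −0.05 in both α2 comparisons. Where a gene has a pair of values, the first is against DU145KO+vector and the other against DU145KO.

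Among 9 tested NAD synthesis genes, 2 rose and 2 fell against DU145KO+vector, and 1 rose and 1 fell against DU145KO. In these comparisons 11.9% and 8.17% of all tested genes were called. KYNU, kynureninase of the route from tryptophan, was measured at 153, 121, 156 and 141 CPM in DU145KO+α2, at 92.1, 55.6, 64.2 and 62.3 CPM in DU145KO+vector and at 72.6, 73.3, 62.3 and 63.3 CPM in DU145KO. All α2 samples were above all others, and KYNU rose by 1.06 (adjusted p = 0.000178) and 1.07 (adjusted p = 2e-04) on the log2 scale. HAAO, a later enzyme of the same route, rose by 1.59 against DU145KO+vector (adjusted p = 0.00292), with 0.287 to 0.72 CPM in the vector line and 1 to 1.55 CPM in the rescued line. Against DU145KO, at 0.738 to 0.916 CPM, HAAO was at 0.67 (adjusted p = 0.167), and the vector line was at −0.92 relative to DU145KO (adjusted p = 0.181). NMRK1, the nicotinamide riboside kinase, had 33.3, 29.3, 29.6 and 26.5 CPM in DU145KO+α2 and between 39 and 43.8 CPM in the other samples. It fell by 0.53 (adjusted p = 0.000375) and 0.46 (adjusted p = 0.0014), while the 20 tested genes nearest to it had a median of −0.28 in the first comparison, 17 of them below 0. NAPRT, which enters nicotinic acid into NAD synthesis, fell by 0.36 against DU145KO+vector (adjusted p = 0.00911) and was at −0.18 against DU145KO (adjusted p = 0.23).

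Among 7 tested genes of NAD phosphorylation, repair and transport, 2 fell against DU145KO+vector and 0 were called against DU145KO. The shares of all tested genes called were 11.9% and 8.17%. SLC25A51, the mitochondrial NAD carrier, fell by 0.70 on the log2 scale (adjusted p = 7e-04) and was at −0.35 against DU145KO (adjusted p = 0.0692, and 0.00434 with the replicate block). All 20 of the tested genes nearest to SLC25A51 were below 0 against DU145KO+vector, with a median of −0.48. HDDC3, a phosphatase of NADPH, fell by 0.40 (adjusted p = 0.00897) and was at −0.15 against DU145KO (adjusted p = 0.375), and 25.5% of its exonic bases overlap UNC45A on the opposite strand, which was at −0.10 in the first comparison (adjusted p = 0.562).

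Of 23 tested NAD consumers, 3 rose and 5 fell against DU145KO+vector, and 1 rose and 6 fell against DU145KO. These are 34.8% and 30.4% of the list, where 11.9% and 8.17% of all tested genes were called. PARP8, PARP9, PARP10, PARP12 and PARP14 fell in both α2 comparisons. They belong to the family that transfers ADP-ribose from NAD to proteins. PARP9, PARP10, PARP12 and PARP14 are known as interferon-stimulated genes, and such genes as a set were not tested here. PARP10 had 27.7, 24.5, 21.7 and 23.2 CPM in the rescued line, 63.7, 50.3, 52.2 and 46.8 CPM in the vector line and 66.8, 38.7, 44.4 and 52 CPM in DU145KO. No α2 sample reached the lowest of the others, and PARP10 fell by 1.13 (adjusted p = 0.000236) and 1.05 (adjusted p = 0.000496). PARP9 fell by 0.58 (adjusted p = 0.0123) and 0.82 (adjusted p = 0.00158), with 28.3 to 50 CPM in the α2 negative samples and 18.6 to 24 CPM in the α2 positive ones. PARP8 fell by 0.53 (adjusted p = 0.0011) and 0.64 (adjusted p = 0.000335). PARP12 fell by 0.36 (adjusted p = 0.00491) and 0.45 (adjusted p = 0.00137), and PARP14 by 0.32 (adjusted p = 0.0119) and 0.53 (adjusted p = 0.000421). PARP9 (chr3:122527924-122564577) and PARP14 (chr3:122680839-122730840) lie close together. Of the 20 tested genes nearest to each, 15 and 16 were below 0 against DU145KO, with a median of −0.13 for both. Around PARP8, PARP10 and PARP12 the medians were −0.03, −0.02 and 0.02 in that comparison. GRINA and SPATC1 overlap 5.37% and 3.27% of the exonic bases of PARP10 on the opposite strand, and DTX3L 1.56% of those of PARP9.

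Promoter windows of PARP9, PARP12 and PARP14 are shown because these genes fell and the windows hold a match to 1 of several patterns searched, marked below. Another searched pattern, GGGCGG, also matched these windows (3, 2 and 1 times) and occurs in 45.0% of all windows. The marked pattern was picked for the search after the fall was seen. It is GAAA, then 2 bases of any kind, then GAAA, on either strand, the core of the element that interferon regulatory factors recognise, and it occurs in 3.57% (1255) of 35116 promoter windows of the same length. It was found once in 1 of 2 windows of PARP9 and once in the window each of PARP12 and PARP14, and in 0 of 3 windows of PARP8. The promoter of PARP10 was not analysed here. The sequences are from RefSeq (GRCh38.p14), run 5′ to 3′ on the strand of the gene from 250 bases before the start to 50 after it, and capitals mark the match. The windows lie at chr3:122564251-122564550 (PARP9, minus strand), chr7:140062902-140063201 (PARP12, minus strand) and chr3:122680589-122680888 (PARP14, plus strand). A match is a description of the letters and says nothing of binding.
PARP9: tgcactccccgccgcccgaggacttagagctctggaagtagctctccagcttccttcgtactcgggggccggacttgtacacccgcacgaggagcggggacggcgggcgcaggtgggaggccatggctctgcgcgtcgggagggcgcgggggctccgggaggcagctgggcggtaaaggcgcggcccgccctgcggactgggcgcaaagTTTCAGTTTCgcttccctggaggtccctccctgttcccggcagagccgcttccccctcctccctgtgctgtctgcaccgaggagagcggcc
PARP12: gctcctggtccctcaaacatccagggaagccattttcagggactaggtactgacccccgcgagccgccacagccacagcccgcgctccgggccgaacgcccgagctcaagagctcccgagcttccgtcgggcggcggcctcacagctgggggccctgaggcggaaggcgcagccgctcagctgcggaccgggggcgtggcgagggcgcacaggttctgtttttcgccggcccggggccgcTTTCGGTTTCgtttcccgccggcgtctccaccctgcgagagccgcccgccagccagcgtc
PARP14: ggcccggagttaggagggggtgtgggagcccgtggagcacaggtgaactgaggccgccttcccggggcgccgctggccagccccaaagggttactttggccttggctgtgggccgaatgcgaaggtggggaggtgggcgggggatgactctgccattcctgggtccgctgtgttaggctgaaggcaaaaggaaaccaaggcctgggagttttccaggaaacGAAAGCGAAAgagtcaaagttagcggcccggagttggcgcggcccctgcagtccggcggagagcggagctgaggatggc

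Other consumers were called as well. SIRT1, a deacetylase that cleaves NAD, was measured at 152, 111, 136 and 159.8 CPM in DU145KO+α2, at 87.8, 81.4, 74 and 87.8 CPM in DU145KO+vector and at 93.5, 97.8, 85.2 and 101 CPM in DU145KO. The α2 samples exceeded all others, and SIRT1 rose by 0.76 (adjusted p = 2e-04) and 0.57 (adjusted p = 0.00227). SIRT5, the mitochondrial desuccinylase, fell by 0.39 against DU145KO (adjusted p = 0.038) and was at −0.30 against DU145KO+vector (adjusted p = 0.0963). TNKS, a tankyrase, rose by 0.49 against DU145KO+vector (adjusted p = 0.00242), where 19 of the 20 tested genes nearest to it were also above 0, with a median of 0.44. Against DU145KO it was at 0.20 (adjusted p = 0.21, and 0.00975 with the replicate block).

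SARM1, an NAD hydrolase known for axon degeneration, had 3.77, 2.44, 1.78 and 1.45 CPM in DU145KO+vector. It had 8.38, 8.95, 7.44 and 7.83 CPM in the rescued line and 9, 5.56, 6.82 and 4.27 CPM in DU145KO, so that the vector line was the low one. SARM1 rose by 1.77 in DU145KO+α2 against DU145KO+vector (adjusted p = 0.000451) and fell by 1.42 in DU145KO+vector against DU145KO (adjusted p = 0.0092). SLC46A1 overlaps 39.8% of the exonic bases of SARM1 on the opposite strand and was at −0.05 in the first comparison (adjusted p = 0.726).

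AOX1, an oxidase that also acts on nicotinamide derivatives, was the 1 of 13 tested breakdown genes that was called in the α2 comparisons, and it rose in both. This is 7.69% of the list, near the shares of all tested genes called (11.9% and 8.17%). Its values were 20.3, 9.35, 13.6 and 12 CPM in the rescued line, 8.26, 4.45, 2.65 and 3.65 CPM in the vector line and 7.01, 5.93, 4.06 and 3.86 CPM in DU145KO. AOX1 rose by 1.52 (adjusted p = 0.0108) and 1.41 (adjusted p = 0.0208), without overlap of α2 samples with the others. In the NADPH supply list 9.09% were called against DU145KO+vector, where 11.9% of all tested genes were called. Of 11 tested genes of NADPH supply, ME1 (malic enzyme) fell by 0.27 against DU145KO+vector (adjusted p = 0.0194), and 0 were called against DU145KO, where ME1 was at −0.18 (adjusted p = 0.134, and 0.0327 with the replicate block).

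Of 10 tested genes of extracellular adenosine, 1 rose and 1 fell against DU145KO+vector and 2 fell against DU145KO. Each is 20% of the list, where 11.9% and 8.17% of all tested genes were called. ADA, adenosine deaminase, rose by 0.79 against DU145KO+vector (adjusted p = 0.00116), with 13.6 to 17.3 CPM in the rescued and 7.92 to 10.5 CPM in the vector line, and was at 0.30 against DU145KO (adjusted p = 0.194, and 0.0425 with the replicate block). PKIG overlaps 7.01% of the exonic bases of ADA on the opposite strand and was at 0.39 and 0.30 in the same comparisons (adjusted p = 0.0856 and 0.218, and 0.00238 and 0.0157 with the replicate block). DPP4, which holds adenosine deaminase at the cell surface, fell by 0.79 against DU145KO+vector (adjusted p = 0.00206), with 50.7, 44.6, 40.6 and 27.4 CPM in the rescued line and 61.3 to 74.6 CPM in the vector line. It was at −0.46 against DU145KO (adjusted p = 0.0584). ENTPD2 fell by 0.65 (adjusted p = 0.0491) and ENTPD3 by 1.40 (adjusted p = 0.0155) in DU145KO+α2 against DU145KO, both being surface enzymes that hydrolyse nucleotides. Of the 20 tested genes nearest to ENTPD2, 18 were below 0 against DU145KO (median −0.16) and all 20 against DU145KO+vector (median −0.38). ENTPD3 also fell in DU145KO+vector against DU145KO, by 1.58 (adjusted p = 0.0244), with 0.359 to 0.887 CPM in the former and 1.35 to 2.21 CPM in the latter.

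**Figure D5:**
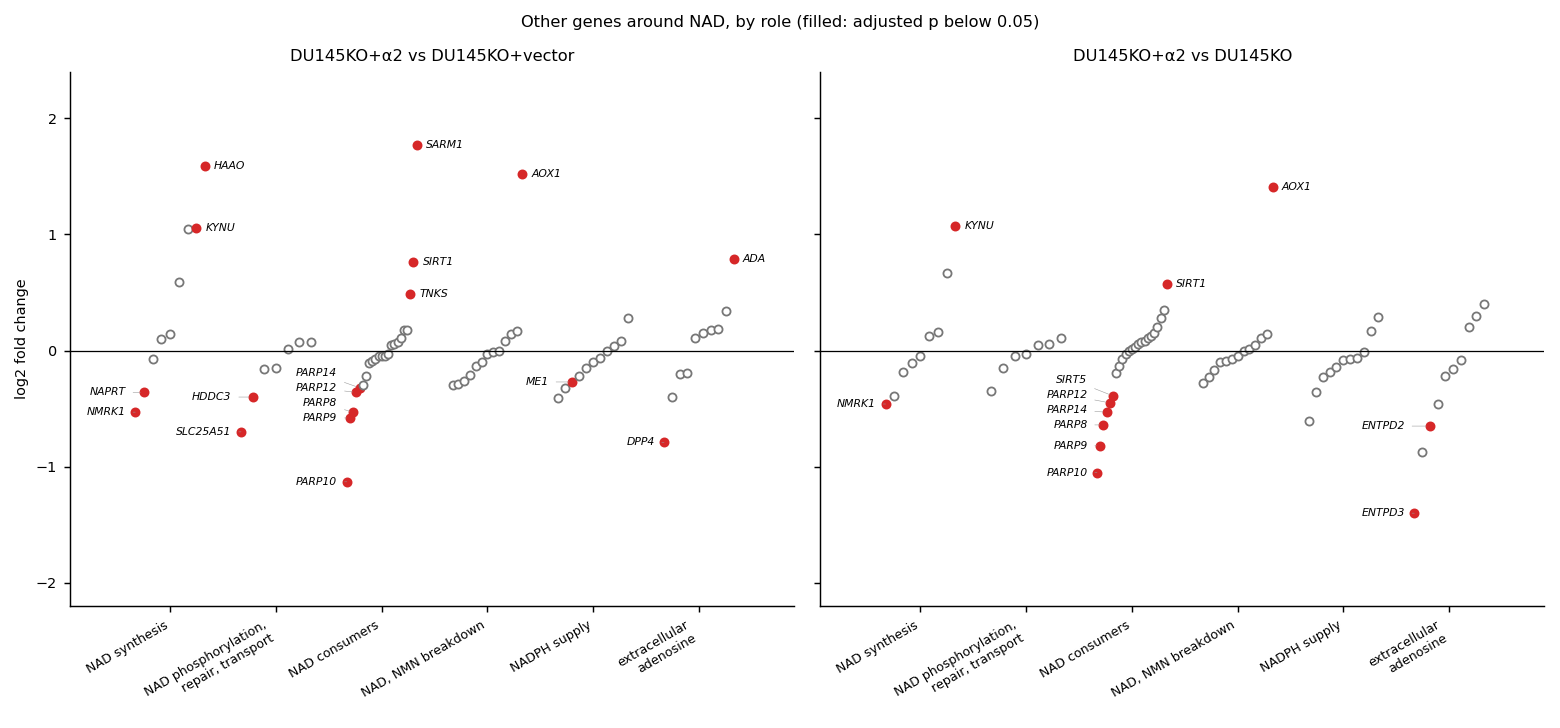
Points are the 73 tested genes of the 6 lists (horizontal axis) with their log2 fold change in DU145KO+α2 against DU145KO+vector (left) and against DU145KO (right). Filled and named points passed the edgeR test at adjusted p below 0.05. The 5 named PARP genes lie below 0 and KYNU, SIRT1 and AOX1 above 0 in both panels.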

How the data were processed

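Total RNA of the spheroids had been made into stranded mRNA libraries and sequenced. Per the labels, the submitters' processing notes name bcl2fastq 1.8.4, TopHat2 2.1.0, Subread 1.5.0, edgeR and limma with hg38. The authors deposited raw read counts per gene and normalized RPKM values (counts scaled to gene length and library size) of the same 12 samples. Whether the counting used strand is not given in the sources used here. Samples were grouped by the construct in their labels. Replicates of a line differed by 7.39 to 25.4 times the sampling variance, so none was a duplicate.

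Deposited counts were tested with edgeR 4.0.16 (R 4.3.3; TMM, filterByExpr with a minimum count of 10, robust quasi-likelihood test, 1 model of 12 samples), with Benjamini-Hochberg adjustment over 14732 genes and a threshold of 0.05. Tests were two-sided. RPKM was used only to order genes. Log2 CPM, used for the deviations and for the genes most like BST1, has a prior count of 2. Fold changes are those of the edgeR fit, which was not given that prior. Intervals cover 95%. Scripts were tested on simulated data. Samples of different lines were paired by the number in their titles: all 12 same-numbered pairs correlated in their deviations (r 0.135 to 0.554), against −0.29 to 0.149 for 36 other pairs. Alternatives were DESeq2 (1.42.0) size factors and test, limma (3.58.1) voom, library size alone, other filters, only the groups compared, a replicate block, a fold above 2 and each sample left out. Leaving out the samples numbered 1 was added after seeing the data.

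The 10 genes and the lists were chosen with earlier results of these data known. Named genes are the 10, ITGA2, the called genes of the NAD lists, 5 neighbours on each side of BST1 and the 5 genes most like it. Of the 10 genes, 8 matched the promoter table, and BST1 and NNMT did not.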

Additional observations from a re-analysis of the deposited data

Results flagged for a closer look

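In 3 of the 30 sets of 4 samples (10 genes in 3 lines), 1 sample lay apart from the other 3 by Dixon's ratio (the gap to the nearest sample divided by the range), which exceeded its 95% critical value. About 1.5 of 30 sets would do so by chance. BST1 in replicate 1 of DU145KO+α2 had a ratio of 0.942, with 1.24 CPM against 0.532 to 0.573 CPM in the other 3. CD38 in replicate 4 of DU145KO had a ratio of 0.913, with 2.46 CPM against 1.85 to 1.91 CPM. NNMT in replicate 1 of DU145KO+vector had a ratio of 0.830, with 162 CPM against 102 to 112 CPM. The difference of BST1 without its sample is given with its values above. The cause was not tested.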

How the results depend on the processing

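No fold change of the 10 genes that had been called changed sign under any alternative run. With the replicate number as a block, 3911 of all genes were called against DU145KO+vector, 3286 against DU145KO and 1980 in the vector line against DU145KO, in place of 1754, 1203 and 344. Of the group without BST1, 6, 5 and, with BST1, 2 were called, and of the NAD lists 27, 26 and 10. The block changed no other call of the 10 genes than those given with their values. A fold change above 2 as well left 325, 309 and 123 of all genes, 0 of the 9 genes in either α2 comparison, and 5 and 4 of the NAD lists. Without the samples numbered 1, BST1 was at −4.21 and −3.62, the 9 genes had 0 calls against DU145KO+vector (NNT adjusted p = 0.0935) and 1 against DU145KO (NMNAT2 adjusted p = 0.175), and between the α2 negative lines 219 genes and 1 of the 10 were called. In that last comparison DESeq2 called 587 genes and 1 of the 10, voom and the fit of the compared groups each 1 of the 10, and the filter of 10 counts in every sample left 1 of the NAD lists. The 1 gene was BST1, at 0.56 with adjusted p of 0.00642 (DESeq2), 0.0282 (voom), 0.0272 (only the groups compared) and 0.00616 (block), and at 0.60 (0.0475) without the samples numbered 1. The levels of both lines entered the choice of BST1, so these tests are not independent of that choice. The cause was not tested.

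Leaving out 1 sample at a time gave 1229 to 1841, 837 to 1197 and 160 to 528 calls over all genes, 0 to 2, 1 to 2 and 0 to 1 in the group, and 17 to 20, 9 to 13 and 1 to 4 in the NAD lists. Between the α2 negative lines the lists had 4 calls without replicate 1 of DU145KO+vector and 1 without replicate 1, 2 or 3 of DU145KO or 2, 3 or 4 of DU145KO+vector. BST1 ranged from −4.2 to −3.71, from −3.64 to −3.14 and from 0.53 to 0.60. BST1 and QPRT could not be fitted under the filter of 10 counts in every sample. Counts of 9 to 20 limit the precision of BST1 in DU145KO+α2.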
